A study of Mus musculus with 9 samples.

Results

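The nuclear-encoded subunits of oxidative phosphorylation were taken as every gene whose symbol begins with Nduf, Uqcr, Cox4 to Cox8, or Atp5, which gave 88 of the 24411 genes of the tables. They comprised 7 core and 29 accessory subunits of complex I, 7 complex I assembly factors that carry the same name stem, 8 subunits of complex III, 11 of complex IV, 8 complex IV isoforms of restricted tissue use, 15 subunits of ATP synthase, the supercomplex factor Cox7a2l, and Atp5s and Atp5sl, which are named like ATP synthase genes. RNA came from mouse EB5 embryonic stem cells, a male line of 129Ola origin derived from E14tg2a, with an IRES-BSD-pA cassette in 1 Oct3/4 allele that all groups carry. Parental cells, Zfp352-KO cells (Zfp352 deleted by CRISPR-Cas9) and Zfp352/Zfp353-DKO cells (both genes deleted) gave 3 libraries each, all from cultures on gelatin with serum and leukemia inhibitory factor. The labels name neither a clone nor separate cultures for any library. The p-values below therefore speak of variation among these libraries alone, part of which may be technical.

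Complex I takes electrons from NADH and passes them through ubiquinone to complex III, then by cytochrome c to complex IV and oxygen, and the protons pumped on the way drive ATP synthase. Some subunits are made in the mitochondrion, and the nuclear ones described here are made in the cytosol and imported. Embryonic stem cells are known for relying heavily on glycolysis in serum culture while keeping an active respiratory chain. NRF1, GABP (an ETS family factor) and YY1 are known as regulators of many of these genes.

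Promoters of 7 members are shown, those of the called subunits of complex III and ATP synthase and of all genes for ATP synthase subunit c, because those members carry the comparisons that follow. Each runs from 250 bases before to 50 bases after a start site given by RefSeq on build GRCm38.p6, 5′ to 3′ on the gene's own minus strand. That site is the outer end of the gene's RefSeq span for 5 of the 7, but lies 63 bases inside the span for Atp5g1 and 1138 bases inside it for Atp5g3, where a GENCODE transcript also starts. Capitals mark a match, on either strand, to the NRF1 letters CGCNTGCGC or the ETS letters CCGGAAG; the YY1 letters AAGATGGCG were also searched.
Atp5e: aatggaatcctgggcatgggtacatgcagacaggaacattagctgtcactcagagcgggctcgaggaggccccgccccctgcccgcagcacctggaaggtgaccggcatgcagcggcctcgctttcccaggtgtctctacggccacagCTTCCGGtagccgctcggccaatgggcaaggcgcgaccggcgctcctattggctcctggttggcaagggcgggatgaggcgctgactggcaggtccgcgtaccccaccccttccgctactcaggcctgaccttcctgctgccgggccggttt
Atp5g1: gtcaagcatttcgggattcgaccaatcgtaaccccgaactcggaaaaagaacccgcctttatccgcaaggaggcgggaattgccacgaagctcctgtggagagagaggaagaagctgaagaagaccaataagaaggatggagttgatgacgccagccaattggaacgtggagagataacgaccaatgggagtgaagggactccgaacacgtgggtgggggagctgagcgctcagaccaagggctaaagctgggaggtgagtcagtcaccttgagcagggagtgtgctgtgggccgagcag
Atp5g2: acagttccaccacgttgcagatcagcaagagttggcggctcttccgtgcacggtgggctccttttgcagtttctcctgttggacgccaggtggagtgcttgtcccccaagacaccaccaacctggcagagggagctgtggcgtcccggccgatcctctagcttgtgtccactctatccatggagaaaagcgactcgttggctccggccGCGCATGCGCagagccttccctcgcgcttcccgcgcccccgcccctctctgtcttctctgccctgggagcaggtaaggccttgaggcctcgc
Atp5g3: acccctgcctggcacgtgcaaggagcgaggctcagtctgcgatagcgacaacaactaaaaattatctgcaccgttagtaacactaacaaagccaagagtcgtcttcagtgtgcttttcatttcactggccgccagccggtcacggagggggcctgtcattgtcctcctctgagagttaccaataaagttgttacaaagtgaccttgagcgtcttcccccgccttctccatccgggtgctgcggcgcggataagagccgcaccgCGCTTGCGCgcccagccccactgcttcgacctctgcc
Atp5l: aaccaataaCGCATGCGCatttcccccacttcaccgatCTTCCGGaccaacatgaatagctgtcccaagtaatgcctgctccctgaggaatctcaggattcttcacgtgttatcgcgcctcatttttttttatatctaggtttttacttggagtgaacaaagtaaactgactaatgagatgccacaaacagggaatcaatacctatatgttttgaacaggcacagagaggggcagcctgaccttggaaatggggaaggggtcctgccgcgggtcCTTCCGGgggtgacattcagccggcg
Uqcr10: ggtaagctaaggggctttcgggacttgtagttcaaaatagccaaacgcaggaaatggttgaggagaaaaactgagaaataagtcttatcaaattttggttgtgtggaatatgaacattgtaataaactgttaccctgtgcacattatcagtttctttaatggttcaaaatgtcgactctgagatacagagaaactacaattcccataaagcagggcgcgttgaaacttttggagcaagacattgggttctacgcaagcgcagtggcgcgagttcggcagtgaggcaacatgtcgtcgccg
Uqcr11: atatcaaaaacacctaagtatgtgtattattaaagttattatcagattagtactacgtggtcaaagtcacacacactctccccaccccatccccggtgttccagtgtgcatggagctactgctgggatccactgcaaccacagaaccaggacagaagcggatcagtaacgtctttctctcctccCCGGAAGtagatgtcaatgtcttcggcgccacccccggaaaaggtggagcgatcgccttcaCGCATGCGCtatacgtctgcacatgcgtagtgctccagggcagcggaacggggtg
Atp5e lies at chr2:174464052-174464351, Atp5g1 at chr11:96075582-96075881, Atp5g2 at chr15:102670998-102671297, Atp5g3 at chr2:73911277-73911576, Atp5l at chr9:44920693-44920992, Uqcr10 at chr11:4704295-4704594 and Uqcr11 at chr10:80406772-80407071. The ETS letters occur once in the windows of Atp5e and Uqcr11 and at both ends of that of Atp5l. The NRF1 letters occur in those of Atp5g2 (2 overlapping matches), Atp5g3, Atp5l and Uqcr11, and none of the 3 motifs in those of Atp5g1 and Uqcr10. A form of the NRF1 letters 1 base longer was searched first, and it matches in Atp5g2 and Atp5g3 but not in Atp5l or Uqcr11. RefSeq windows were found for 73 of the 88 members, with the start site at the outer end of the gene's span in 56 and inside it in 17. The NRF1 letters occurred in 19 of these 73 (26.0%) and in 6.47% of 27025 promoters of the same length, and the longer form in 16 (21.9%) and 4.78%. The ETS letters occurred in 14 (19.2%, against 9.12%) and the YY1 letters in 7 (9.59%, against 1.49%). At least 1 of the 3 motifs stood in 34 windows (46.6%, against 15.3%), or in 33 (45.2%, against 3794 of the 27025) with the longer form. In the windows shown, matches to different motifs do not overlap, and a match is a description of the sequence only.

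Libraries held 16599004 to 22044820 expected counts, and the members took 1.08% to 1.19% of them and 2.52% to 2.66% of all TPM (transcript level after division by length). Of the targeted genes, Zfp352 followed the labels, at 47, 52 and 41 counts in Parental, 3, 8 and 10 in Zfp352-KO and 1, 1 and 3 among Zfp352/Zfp353-DKO libraries. No level of Zfp353 is given here, and Zfp352 counts do not tell the edited genotypes apart. The stem cell markers Pou5f1, Nanog, Sox2, Klf4, Esrrb and Zfp42 summed to 3284 to 3445 TPM over all libraries. Some markers of other cell types were lower in the edited lines, with 3 of 4 tested trophectoderm and 3 of 6 fibroblast markers called lower in each comparison with Parental by edgeR. The 5 trophectoderm markers summed to 242 to 284 TPM in Parental, 166 to 175 in Zfp352-KO and 139 to 152 among Zfp352/Zfp353-DKO libraries, and the 6 fibroblast markers to 26.1 to 29.8, 14.9 to 17.9 and 13.3 to 15.6. The 4 mesoderm markers summed to 4.59 to 7.11, 1.41 to 2.58 and 1.57 to 2.06 TPM, with 1 of 3 tested called lower in each comparison with Parental. Primitive endoderm markers (4 tested) and neuroectoderm markers (3 tested) had 0 calls in either direction. In the same order of groups they summed to 4.44 to 5.90, 4.22 to 5.96 and 4.30 to 6.49 TPM, and to 135 to 140, 131 to 139 and 136 to 142. Of the stem cell markers Sox2 was called higher in Zfp352/Zfp353-DKO than in Parental cells. Their part in the results on the subunits was not tested. In bulk RNA, fewer cells of a type and less RNA per cell cannot be told apart.

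In these stem cells ATP synthase and complex IV genes had the highest levels, and genes of complex I, whose subunits are far more numerous, had lower ones. The median over members of the mean TPM was 554 for complex IV, 537 for ATP synthase, 343 for complex III, 165 for the accessory and 136 for the core subunits of complex I, and 19.8 for its assembly factors. Atp5b, the catalytic beta subunit of ATP synthase, was the most abundant member. Its TPM was 2198, 2201 and 2316 in Parental, 2314, 2333 and 2317 in Zfp352-KO and 2328, 2257 and 2324 among Zfp352/Zfp353-DKO libraries, and the groups overlapped. Atp5e, the epsilon subunit of the central stalk of the same enzyme, was the lowest of its class at a mean of 196 TPM. The most abundant complex IV transcript was Cox4i1, the ubiquitous isoform of subunit IV (1624 TPM), and the lowest outside the restricted isoforms was Cox7a2 (196 TPM), the common isoform of subunit VIIa. In complex III the range ran only from 153 TPM (Uqcrfs1, the Rieske iron-sulfur protein) to 475 (Uqcr10, a small subunit beside it). Among core subunits of complex I the lowest was Ndufs1, the large iron-sulfur subunit of the NADH-oxidizing arm, at 108 TPM.

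**Figure D1:**
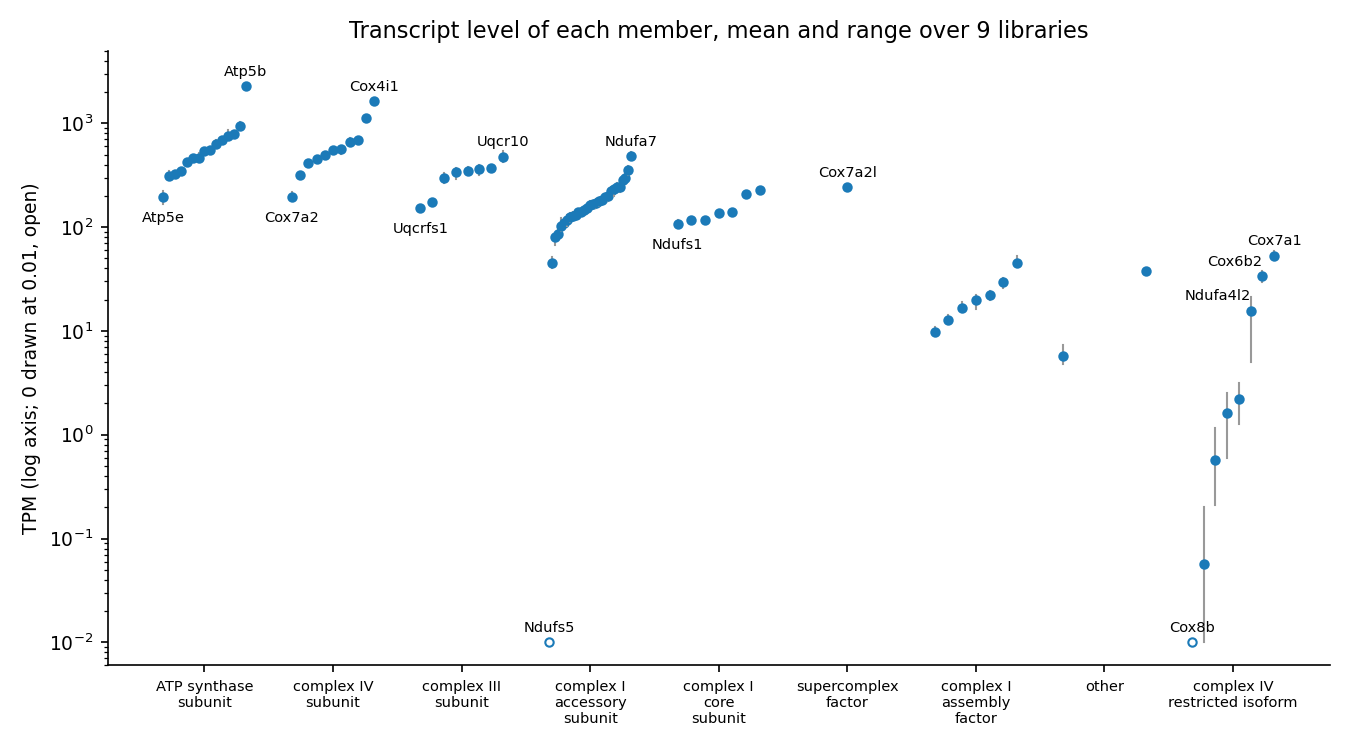
TPM of each member on a log axis, grouped by role; points are means over 9 libraries, lines run from the lowest to the highest library, and open points are members listed at 0 in all of them. Levels span from Atp5b at 2288 TPM down to restricted complex IV isoforms below 1 TPM.

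Accessory subunits of complex I ranged up to 484 TPM (Ndufa7). At the low end stood Ndufs5, an accessory subunit on chr4:123712710-123718186, which was listed at 0 in all 9 libraries. An exact 0 in estimated counts can come from how reads were assigned, so no level is given for Ndufs5. The assembly factors, which help build complex I without staying in it, ran from 9.86 TPM (Ndufaf5) to 45.4 (Ndufaf2). Cox7a2l, known for joining complexes III and IV into supercomplexes, stood at 244 TPM with libraries between 235 and 255. Atp5s and Atp5sl averaged 5.77 and 38.1 TPM.

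The complex IV isoforms known from muscle, testis or low oxygen were low or near 0, apart from a few. Cox7a1, the heart and muscle isoform of subunit VIIa, had 50.8 to 58.6 TPM in Parental, 49.7 to 57.1 in Zfp352-KO and 48.0 to 55.1 among Zfp352/Zfp353-DKO libraries, with overlapping groups. Cox6b2, known from testis, had 33.3 to 37.8, 29.7 to 37.6 and 31.3 to 36.2 TPM, again with overlap. Other muscle and testis isoforms were near the limit of counting. Cox6a2 had 0 or 1 count in each library, Cox8c 1 to 5 and Cox7b2 3 to 13, while Cox4i2, the lung and low-oxygen isoform of subunit IV, had 8 to 25. Cox8b was listed at 0 in all 9. The muscle markers Myh6, Tnnt2, Actc1, Myod1 and Myog summed to 4.13 to 6.47 TPM, so the level of Cox7a1 exceeded their sum in every library.

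The first question was whether loss of Zfp352 moved these transcripts. Transcripts of 5 members were lower in Zfp352-KO cells than in the Parental line and 0 were higher, by edgeR's quasi-likelihood test at a Benjamini-Hochberg adjusted p under 0.05 over 14300 genes. The 5 were the ATP synthase genes Atp5e, Atp5g1 and Atp5l, the complex III gene Uqcr10, and Ndufa4l2. They are 5.95% of the 84 members tested, where 3.64% of all tested genes were called lower, 3.43% were called higher, and 6.57% of the shortest 20% of genes were called lower. All 5 calls were lost without Parental 1, Parental 2, Zfp352-KO 1 or Zfp352-KO 2, and the count was 2 without Parental 3, 8 without Zfp352-KO 3, 1 without Zfp352/Zfp353-DKO 2 and 9 without Zfp352/Zfp353-DKO 3. Where all 5 were lost, fewer of all genes were called lower as well. For the other fits that number is not given here, so these counts do not set the members apart from all genes. The remaining 4 members, Ndufs5, Cox6a2, Cox8b and Cox8c, did not pass the filter on low counts. No core, accessory or assembly gene of complex I and no common subunit of complex IV was called in either direction, out of 7, 28, 7 and 11 tested.

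Atp5g1, Atp5g2 and Atp5g3 encode the same mature subunit c, which forms the rotor ring of ATP synthase, with different import sequences. Atp5g1 had 802, 817 and 855 TPM in Parental, 691, 772 and 753 in Zfp352-KO and 752, 731 and 690 among Zfp352/Zfp353-DKO libraries. Every edited library lay below every Parental one. The log2 fold change was -0.20 ± 0.06 (SE; edgeR adjusted p = 0.0384) in Zfp352-KO and -0.23 ± 0.06 (adjusted p = 0.0189) among Zfp352/Zfp353-DKO cells. Atp5g2 (-0.10 ± 0.06 and -0.08 ± 0.06) and Atp5g3 (-0.12 ± 0.05 and -0.11 ± 0.05) were not called in either. The share of Atp5g1 in the summed TPM of the trio was 33.6% ± 0.455 (SD, n = 3) for Parental, 32.1% ± 0.515 in Zfp352-KO and 31.5% ± 0.722 among Zfp352/Zfp353-DKO cells.

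Atp5l encodes subunit g, a small membrane protein of the ATP synthase stator and dimer interface. Its TPM was 512, 512 and 502 in Parental, 424, 434 and 470 in Zfp352-KO and 461, 460 and 429 among Zfp352/Zfp353-DKO libraries. All edited libraries were below all Parental ones, with log2 fold changes of -0.25 ± 0.06 (edgeR adjusted p = 0.0208) and -0.21 ± 0.06 (adjusted p = 0.0319). Atp5e had 208, 213 and 223 TPM in Parental, 166, 192 and 197 in Zfp352-KO and 200, 177 and 189 among Zfp352/Zfp353-DKO libraries. The groups did not overlap there either, and the change was called in Zfp352-KO (-0.25 ± 0.07, edgeR adjusted p = 0.048) but not in Zfp352/Zfp353-DKO cells (-0.22 ± 0.07, adjusted p = 0.0681). The catalytic subunits were not called, with log2 fold changes of 0.01 ± 0.04 and 0.00 ± 0.04 for Atp5b and -0.01 ± 0.04 and 0.00 ± 0.04 for the alpha subunit Atp5a1. TPM of Atp5a1 was 773, 762 and 789.9 in Parental, 790.1, 799 and 793 in Zfp352-KO and 792, 794 and 805 among Zfp352/Zfp353-DKO libraries, so the groups barely missed overlapping. Of the 15 ATP synthase genes, 14 had a negative estimate in each edited genotype.

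**Figure D2:**
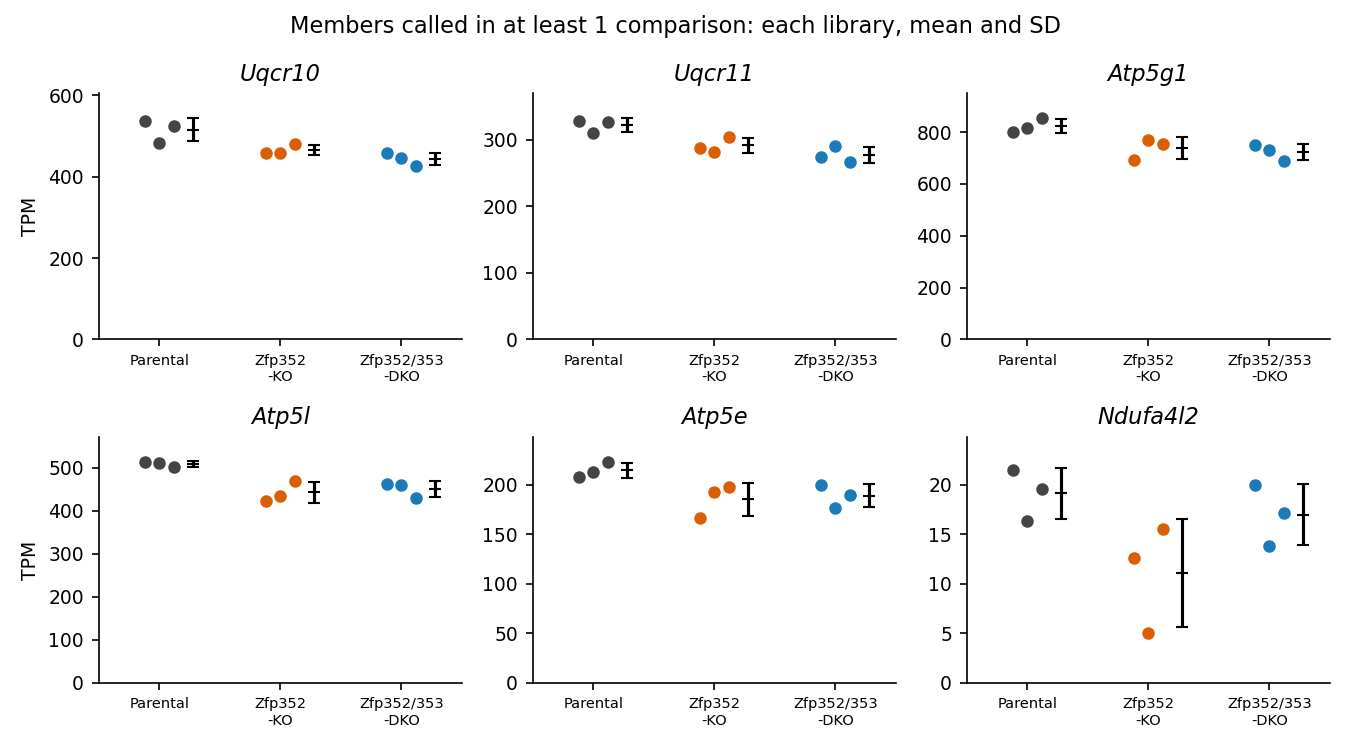
TPM in each library (points) with the mean and SD (bars) for the 6 members called in at least 1 comparison; axes start at 0. Edited libraries lie below the Parental ones for Uqcr10, Uqcr11, Atp5g1, Atp5l and Atp5e, and overlap with them for Ndufa4l2 in the Zfp352/Zfp353-DKO group.

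Ndufa4l2, known as a paralogue of the complex IV subunit Ndufa4 that is induced in low oxygen, showed the widest spread of the called members. Its TPM was 21.4, 16.3 and 19.6 in Parental, 12.6, 5.02 and 15.6 in Zfp352-KO and 19.9, 13.8 and 17.1 among Zfp352/Zfp353-DKO libraries. All Zfp352-KO libraries were below Parental ones and library 2 was far below the others, while Zfp352/Zfp353-DKO overlapped with Parental. The log2 fold change in Zfp352-KO was -0.86 ± 0.24 (edgeR adjusted p = 0.0374), and without library 2 it was -0.46 (adjusted p = 0.125). In Zfp352/Zfp353-DKO it was -0.21 ± 0.22 (adjusted p = 0.615), and between the edited genotypes 0.65 ± 0.24 (adjusted p = 0.629), so a difference between them was not shown. Exons of Ndufa4l2 overlap those of Shmt2 on the opposite strand, and whether the counting used the strand is not given in the sources used here. Shmt2 stood at 180 to 195 TPM in all libraries, with a log2 fold change of -0.02 ± 0.05 in Zfp352-KO cells.

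The second question was whether deleting Zfp353 as well gave another pattern. Transcripts of 4 members were lower in Zfp352/Zfp353-DKO than in Parental cells and 0 were higher, by the same edgeR test and threshold. They were Uqcr10 and Uqcr11 of complex III and Atp5g1 and Atp5l of ATP synthase. These are 4.76% of the tested members, beside 4.82% of all genes called lower and 3.65% called higher, and 6.75% of the shortest 20% of genes called lower. The count is thus near the background. Without Parental 1 it was 0, and without Parental 2, Zfp352/Zfp353-DKO 2 or Zfp352/Zfp353-DKO 3 it was 2, Uqcr10 and Uqcr11, while without Zfp352/Zfp353-DKO 1 it was 7. The number of all genes called lower in these fits is not given here. Both comparisons share the Parental libraries, so a gene low in both rests on the same 3 controls.

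Complex III is described member by member because its summed levels separated both edited genotypes from Parental, a choice made after its values were seen. Uqcr10 had 538, 484 and 526 TPM in Parental, 458, 459 and 480 in Zfp352-KO and 458, 446 and 427 among Zfp352/Zfp353-DKO libraries. Edited and Parental libraries did not overlap, with log2 fold changes of -0.19 ± 0.06 (edgeR adjusted p = 0.0427) and -0.25 ± 0.06 (adjusted p = 0.00755). Uqcr11, the smallest subunit of the complex, had 329, 310 and 327 TPM in Parental, 288, 282 and 304 in Zfp352-KO and 274, 290 and 266 among Zfp352/Zfp353-DKO libraries. It too did not overlap, and was called in Zfp352/Zfp353-DKO (-0.26 ± 0.06, edgeR adjusted p = 0.00976) but not in Zfp352-KO cells (-0.19 ± 0.06, adjusted p = 0.056). Uqcrq, a small subunit near the quinone site, went from 370, 354 and 373 TPM to 313, 342 and 334 and to 348, 335 and 289, without overlap and without a call (-0.19 ± 0.07 and -0.21 ± 0.07; edgeR adjusted p = 0.097 and 0.0672). Uqcrh, the hinge protein, gave -0.13 ± 0.06 in both. The large core proteins Uqcrc1 (-0.07 ± 0.05 and -0.04 ± 0.05) and Uqcrc2 (-0.04 ± 0.05 and -0.02 ± 0.04), and Uqcrfs1 (-0.09 ± 0.05 and -0.01 ± 0.05), were not called, and Uqcrb had positive estimates (0.02 ± 0.07 and 0.06 ± 0.07).

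Summed over the 8 genes, complex III stood at 2637, 2596 and 2597 TPM in Parental, 2431, 2462 and 2542 in Zfp352-KO and 2487, 2510 and 2390 among Zfp352/Zfp353-DKO libraries. The mean was 5.04% below Parental in Zfp352-KO and 5.66% below it among Zfp352/Zfp353-DKO cells, and no edited library reached the Parental range. No p is given for these sums, since the members were chosen with results known. ATP synthase summed to 9918 ± 56.0 TPM (SD, n = 3) for Parental, 9665 ± 220 in Zfp352-KO and 9669 ± 206 among Zfp352/Zfp353-DKO cells, complex IV to 7193 ± 56.2, 7050 ± 241 and 7082 ± 143, and complex I subunits to 6191 ± 22.0, 6095 ± 123 and 6226 ± 254. For ATP synthase the Zfp352-KO libraries, at 9421, 9729 and 9845 TPM, all lay below the lowest Parental one at 9857, while Zfp352/Zfp353-DKO library 1, at 9900, lay inside the Parental range. For complex IV and complex I at least 1 library of each edited genotype lay inside or above the Parental range. Within complex I the core subunits summed to 1041 ± 15.5, 1052 ± 13.6 and 1064 ± 14.7 TPM and the assembly factors to 157 ± 5.69, 157 ± 4.66 and 155 ± 5.44, differences within or near the spread of the libraries.

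**Figure D3:**
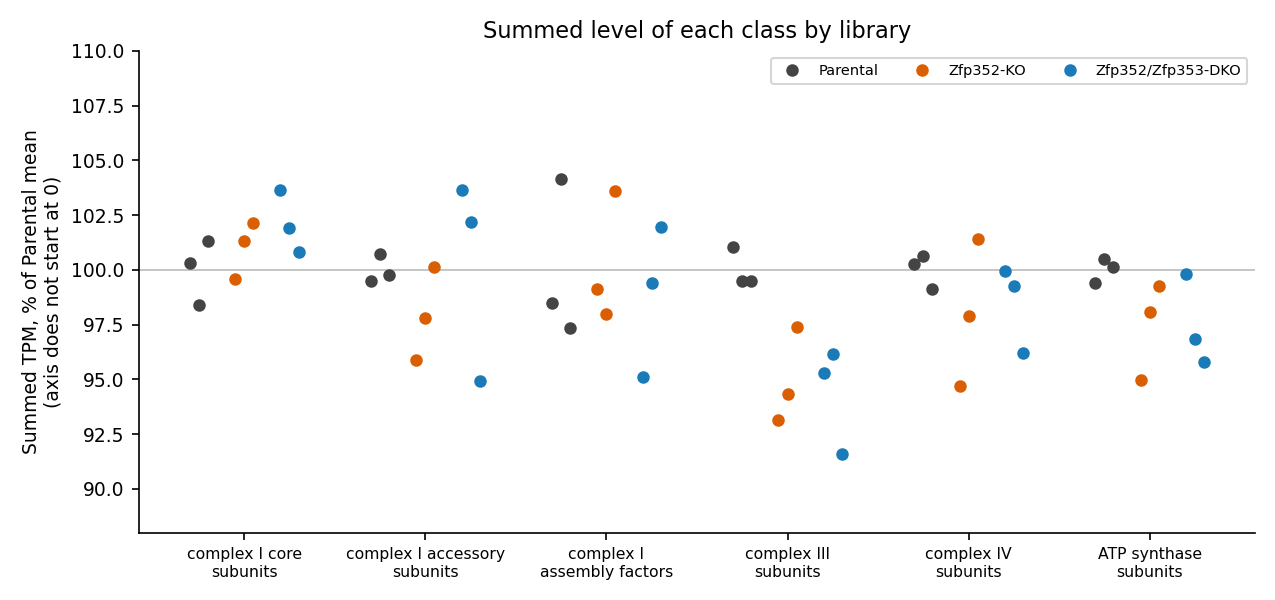
Summed TPM of each class in each library as percent of the Parental mean; each point is a library, and the axis does not start at 0. Complex III is the class in which all edited libraries lie below all Parental ones, and complex I accessory subunits span from 94.9% to 103.7% within Zfp352/Zfp353-DKO alone.

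Between the edited genotypes 0 of 84 members were called higher or lower in Zfp352/Zfp353-DKO than in Zfp352-KO cells by edgeR, and 0 by DESeq2 and by limma. Of all genes 0.0140% were called higher and 0.0909% lower. An unadjusted edgeR p under 0.05 was found for 3 of the 84 members and for 919 of all 14300 tested genes. The members' median log2 fold change was 0.02, with 56 of 84 positive.

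The small shifts ran across most members rather than in a few. The median log2 fold change of the 84 members was -0.08 in Zfp352-KO (73 negative) and -0.05 in Zfp352/Zfp353-DKO cells (62 negative), where that of all tested genes was -0.01 and 0.00. By class the median in Zfp352-KO was -0.11 for complex III, -0.10 for ATP synthase, -0.08 for complex IV and for complex I accessory subunits, and -0.03 for core subunits. In Zfp352/Zfp353-DKO cells it was -0.08, -0.08, -0.09, -0.05 and -0.01. In TPM, 12 members (14.3%) had every Zfp352-KO library below every Parental one and 2 (2.38%), Atp5a1 and Ndufs1, had every one above, beside 9.98% and 16.2% of all tested genes. For Zfp352/Zfp353-DKO against Parental libraries the counts were 10 below (11.9%) and 5 above (5.95%), beside 11.0% and 15.8%. The 5 above were Atp5a1, Ndufa9, Ndufs4, Ndufv1 and Cox4i1, and none of them was called on counts. The same counts had first been made in CPM, and TPM was chosen to be shown after both were seen. In CPM 15 members (17.9%) lay below and 1 (1.19%), Ndufs1, above in Zfp352-KO, beside 14.4% and 13.0% of all tested genes. For Zfp352/Zfp353-DKO libraries 8 (9.52%) lay below and 0 above, beside 2146 and 1875 of the 14300 genes. Atp5a1, Ndufa9, Ndufs4, Ndufv1 and Cox4i1 thus overlapped with Parental in CPM. TPM and counts were scaled separately, so a member near 0 on one scale can lie slightly to either side on the other.

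Libraries of the same genotype differed from each other by as much as the genotypes did. The median log2 CPM of the members, less their mean over 9 libraries, was 0.05, 0.09 and -0.01 in Parental, -0.10, -0.04 and 0.04 in Zfp352-KO and 0.05, 0.01 and -0.10 among Zfp352/Zfp353-DKO libraries. Zfp352-KO library 3 was higher than Parental library 3, and Zfp352/Zfp353-DKO library 1 stood level with Parental library 1, so the groups overlapped. The number of members above their own mean ran from 36 to 77 of 84 in Parental, 9 to 67 in Zfp352-KO and 9 to 69 among Zfp352/Zfp353-DKO libraries. The pooled SD of this median within genotypes was 0.07. For single members the coefficient of variation of CPM within genotypes had a median of 6.19%, from 1.86% for Atp5a1 to 41.9% for Cox7b2. Among genes of at least 50 CPM it was 5.38% for 55 members and 4.28% for all 4230 such genes.

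**Figure D4:**
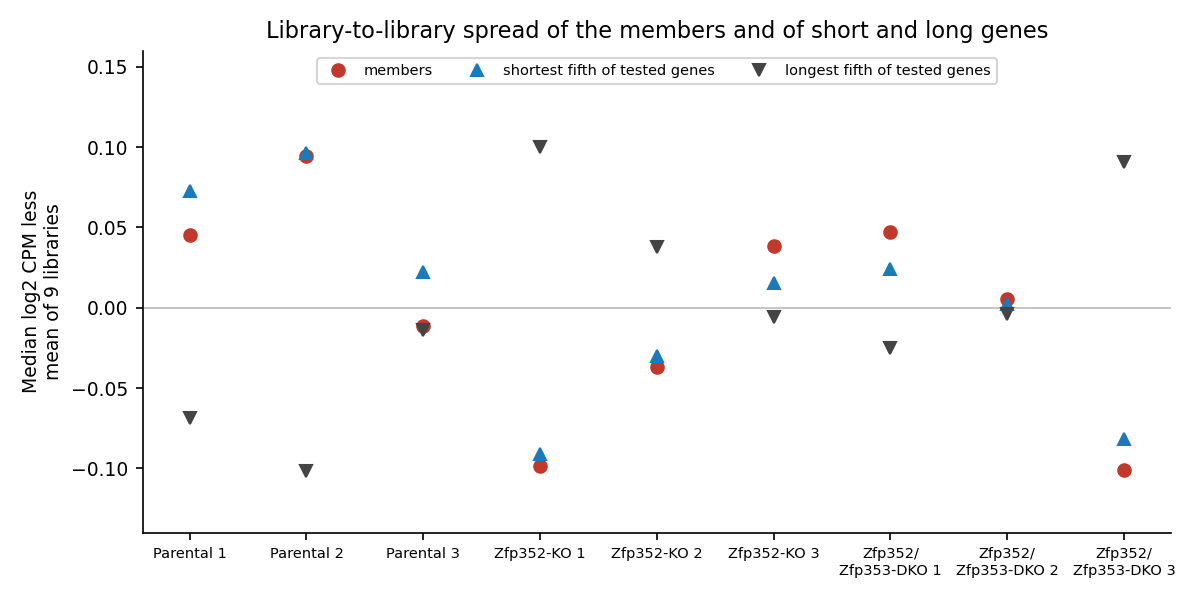
Median log2 CPM, less the mean of 9 libraries, for the members (circles), the shortest 20% (upward triangles) and the longest 20% (downward triangles) of tested genes in each library. The members lie near the short genes and opposite the long ones except in Parental 3, where they share the sign of the long genes, with Parental 2 highest and Zfp352-KO 1 and Zfp352/Zfp353-DKO 3 lowest.

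Transcript length moved with these results. The length column gave the tested members a median of 681 bases against 2803 for all tested genes, with 72 of 84 in the shortest 20% (up to 1574 bases) and 1, Ndufaf4 at 3632 bases, above the overall median. In each library the members lay near the shortest 20% of all genes, which stood at 0.07, 0.10 and 0.02 in Parental, -0.09, -0.03 and 0.02 in Zfp352-KO and 0.02, 0.00 and -0.08 among Zfp352/Zfp353-DKO libraries. The longest 20% moved the other way, from -0.10 in Parental library 2 to 0.10 in Zfp352-KO library 1. Over all genes the median log2 fold change of the shortest 20% was -0.09 in Zfp352-KO and -0.08 among Zfp352/Zfp353-DKO cells, and that of the longest 20% 0.10 and 0.08. Across members, Spearman's rho between length and log2 fold change was 0.35 in Zfp352-KO and 0.48 among Zfp352/Zfp353-DKO cells (84 genes that share libraries and are not independent), and across all 14300 tested genes it was 0.38 and 0.31.

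**Figure D5:**
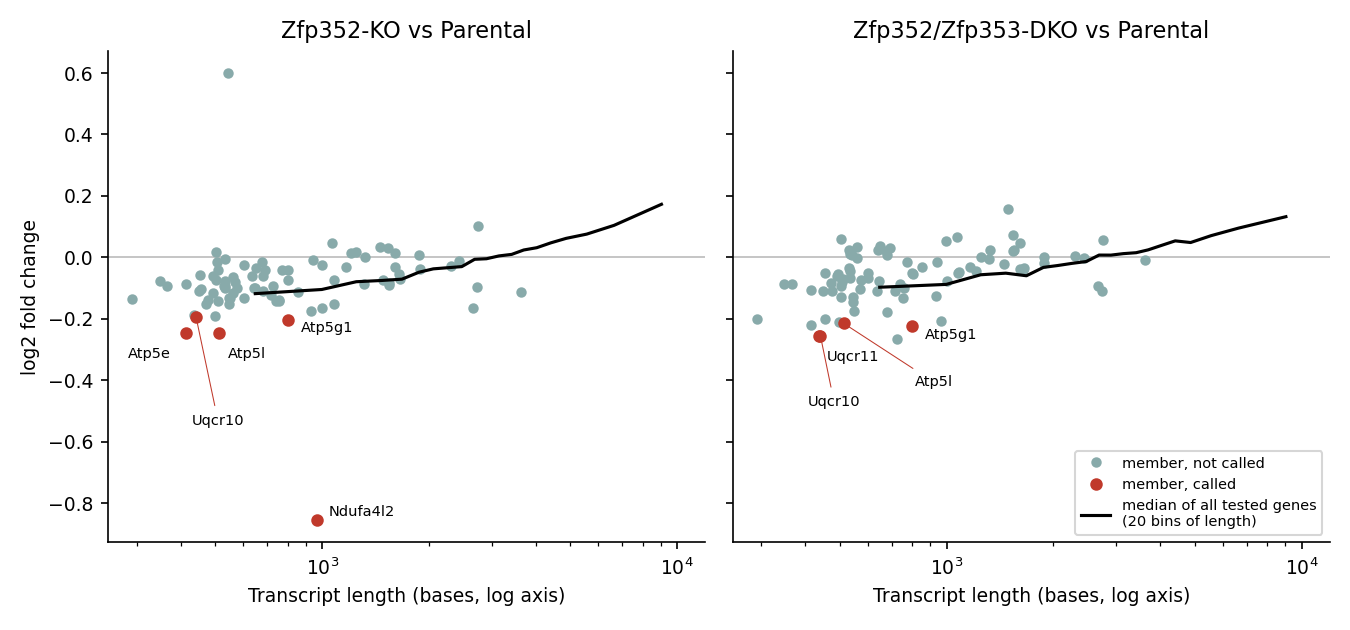
Log2 fold change of each tested member against transcript length (log axis) in both comparisons with Parental; red points were called and the line is the median of all tested genes in 20 bins of length. At short lengths both the line and most members lie below 0, and Ndufa4l2 at -0.86 lies well below the line.

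Each library's trend on length, in log2 CPM less each gene's mean over all libraries, was then removed before the same edgeR test. The members' median became 0.03 in Zfp352-KO and 0.04 among Zfp352/Zfp353-DKO cells, beside 0.02 and 0.03 for all tested genes. Of the 5 members called lower in Zfp352-KO, only Ndufa4l2 passed (-0.75 ± 0.22, edgeR adjusted p = 0.0424), and Cox4i1 was called higher (0.12 ± 0.03, adjusted p = 0.0473). That is 1 of 84 in each direction, beside 2.67% of all genes lower and 3.13% higher. Among Zfp352/Zfp353-DKO calls, none of the 4 lower ones passed (beside 4.64% of all genes), with Uqcr10 at -0.13 ± 0.04 (edgeR adjusted p = 0.0564) and Uqcr11 at -0.14 ± 0.05 (adjusted p = 0.0764). Instead 6 members were called higher, 7.14% beside 5.43% of all genes. They were Cox4i1 (0.14), Cox5a (0.15) of complex IV, and the complex I accessory genes Ndufa6 (0.16), Ndufb5 (0.15), Ndufb8 (0.14) and Ndufb9 (0.16). Before this step the same 6 had log2 fold changes between 0.02 and 0.05, and TPM overlapped with Parental except for Cox4i1, at 1577, 1599 and 1589 in Parental against 1691, 1675 and 1606 in Zfp352/Zfp353-DKO libraries. With trends on both length and GC content removed, 3 members were higher and 3 lower in Zfp352-KO (beside 3.02% and 2.67% of all genes), and 7 higher and 3 lower for Zfp352/Zfp353-DKO (beside 5.57% and 4.70%). Higher in Zfp352-KO were Cox4i1 (0.16, edgeR adjusted p = 0.00234), Ndufa13 (0.20, adjusted p = 0.00399) and Ndufv1 (0.14, adjusted p = 0.0142). The 7 higher for Zfp352/Zfp353-DKO were Cox4i1, Cox5a, Ndufa6, Ndufa13, Ndufb8, Ndufb9 and Ndufv1. Their edgeR adjusted p ran from 0.00179 (Cox4i1) to 0.0313 (Ndufa13). Ndufa4l2 was then not called in Zfp352-KO (-0.68 ± 0.21, edgeR adjusted p = 0.0584), and of the 3 lower there Cox7b and Ndufaf4 were not among the 5 called without trend removal. Atp5l was lower in Zfp352-KO (-0.16 ± 0.04, edgeR adjusted p = 0.0168) and likewise in Zfp352/Zfp353-DKO (-0.13 ± 0.04, adjusted p = 0.0327), as were Atp5g1 (-0.12 ± 0.04, adjusted p = 0.0437) and Uqcr10 (-0.13 ± 0.04, adjusted p = 0.0373) in the latter. The sign of the members' median therefore differed between the fits with and without the length trend, and what gave rise to the trend was not tested.

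Of 62 other genes of the pathway, 60 were in the tables and 58 were tested. With all 9 libraries, the filter on low counts and no trend removal, edgeR called 0 in any of the 3 comparisons. The shares of all genes called are given above. DESeq2 and limma also called 0 of these genes. By edgeR 8 of the 58 had an unadjusted p under 0.05 in each comparison with Parental and 1 between the edited genotypes. Of all 14300 tested genes, 3396 had such a p for Zfp352-KO against Parental. The number was 3508 for Zfp352/Zfp353-DKO against Parental and 919 between the edited genotypes. The share among the 58 was thus smaller than among all genes in every comparison. With the length trend removed, Acad9, a complex I assembly factor, was called lower in Zfp352/Zfp353-DKO than in Parental cells (-0.16 ± 0.05, edgeR adjusted p = 0.04). With both trends removed, Acad9 (-0.17 ± 0.05, edgeR adjusted p = 0.0221) was called lower and Pprc1, a coactivator, higher (adjusted p = 0.036). The 62 genes are the 4 subunits of complex II, cytochrome c and cytochrome c1, assembly factors outside the name rule, and regulators. Complex II summed to 639 to 646 TPM in Parental, 637 to 651 in Zfp352-KO and 654 to 658 among Zfp352/Zfp353-DKO libraries. Cycs, the electron carrier to complex IV, had 76.6 to 82.7, 80.0 to 83.6 and 74.4 to 82.1 TPM, and Cyc1, the heme subunit of complex III whose name falls outside the rule, 356 to 375, 326 to 357 and 342 to 374. Nrf1 had 49.1 to 51.8 TPM in Parental, 46.2 to 52.9 in Zfp352-KO and 48.8 to 54.2 among Zfp352/Zfp353-DKO libraries. Gabpa, the ETS subunit of GABP, had 43.9 to 46.6, 49.2 to 58.1 and 45.8 to 59.0 TPM, with log2 fold changes of 0.18 and 0.15 that were not called (edgeR adjusted p = 0.0897 and 0.149), although Gabpa was called higher in Zfp352-KO without a filter on low counts, in a fit of the 6 libraries compared and without Zfp352/Zfp353-DKO 3, and in Zfp352/Zfp353-DKO without Zfp352/Zfp353-DKO 1. Gabpb2, another listed regulator, was called higher in Zfp352-KO without that filter, without Zfp352-KO 3 and without Zfp352/Zfp353-DKO 3. Pet100, a listed assembly factor, was called lower in Zfp352/Zfp353-DKO without Parental 3. The median log2 fold change of the 58 was -0.03 in Zfp352-KO and -0.02 among Zfp352/Zfp353-DKO cells. Usmg5, a small ATP synthase subunit named outside the rule, had 347 to 385, 327 to 341 and 347 to 362 TPM.

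Values of some members are less certain than others. Expected counts of 6 members, Atp5f1, Atp5j, Cox7c, Ndufa13, Ndufa2 and Ndufs1, were more than 0.02 from a whole number in some library, which is how the counting records reads divided between genes. Cox7c was the most abundant of them, at 1158 ± 13.5 TPM in Parental and 1102 ± 19.3 in Zfp352/Zfp353-DKO cells, and its near copy Gm10012 stood at 3.65 to 8.99 TPM. Exons of 21 members overlap an opposite-strand gene of the tables, among them Cox4i1 with Emc8, and those of Atp5g2 and Atp5o a gene on the same strand.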

How the data were processed

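Expected counts per gene, estimates of reads that need not be whole, and TPM were deposited by the authors, per the file headers, with the length of each gene's transcripts. The submitters' processing notes list RSEM 1.3.3, STAR 2.7.8a, Trim Galore 0.6.6 and the build mm10. Library kits were stranded, per the labels' protocols. Neither annotation release nor strand setting is given in the sources used here. Of the values, 8.82% were not whole (tolerance 0.02).

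Expected counts were rounded and tested with edgeR 4.0.16 (R 4.3.3; TMM, filterByExpr, quasi-likelihood, two-sided), all 9 libraries in 1 fit by genotype without block, 6 residual degrees of freedom, with a call at an adjusted p (Benjamini-Hochberg) under 0.05 over 14300 genes. Each SE of a log2 fold change was derived from that test, as its absolute value divided by the square root of the F statistic. The common coefficient of biological variation was 4.95%. The test was tried on simulated counts with known changes. Same-genotype libraries differed beyond sampling noise (chi-square per degree of freedom 2.49 to 6.90). TPM served for levels and sums. The length trend was a local regression (span 0.3) on log length in each library, entered as an offset. The value regressed was log2 CPM less the gene's mean over all libraries. GC content came from GENCODE transcripts of GRCm38. Loci and promoters came from RefSeq GRCm38.

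Alternatives were RLE and plain library totals, other filters, DESeq2 1.42.0, limma 3.58.1 on log2(TPM + 1) or log2(TPM + 0.1), a replicate block, the 6 libraries compared, a threshold of 0.01 and leaving out each library. Leaving out Parental 2, Zfp352-KO 1 and Zfp352/Zfp353-DKO 3 together was added after seeing the data. Counts of members without overlap were first made in CPM and then in TPM, and promoters were first searched with an NRF1 form of 10 letters and then with the 9-letter form shown; both changes were made for presentation after the values were seen, and both versions are given. The members and lists were chosen with earlier results of these data known. Named members are those called, the highest and lowest of each class, the restricted isoforms, the subunit c genes and those whose call changed with the length trend, and others named were chosen after their values were seen. The level of 1 member that the rule names is not reported here.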

Additional observations from a re-analysis of the deposited data

How the results depend on the processing

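The calls on members are few and close to the threshold. Of 5 members lower in Zfp352-KO cells, the count became 8 without a filter on low counts and in a fit of the 6 libraries compared, 3 with DESeq2, 1 with limma on log2(TPM + 1) and on log2(TPM + 0.1), 0 at an adjusted p under 0.01, and 0 to 9 when 1 library was left out. It was 0 without Parental 1, Parental 2, Zfp352-KO 1 or Zfp352-KO 2, where all genes called lower fell from 520 to 160, 244, 199 and 220. The cause was not tested. Besides these counts and those with trends removed, the number of all genes called at each setting is not given here. Such member counts alone do not tell a change in the members from one across all genes. Removing the length trend left 1 lower and 1 higher, and removing length and GC trends 3 and 3. Of 4 members lower in Zfp352/Zfp353-DKO cells, 0 were lower and 6 higher without the length trend, 3 were lower and 7 higher without both trends, 2 were lower at 0.01, and 0 to 7 with 1 library left out, 0 without Parental 1. Over all genes that comparison gave 777 higher and 663 lower without the length trend, against 522 and 689 with it. Leaving out Parental 2, Zfp352-KO 1 and Zfp352/Zfp353-DKO 3 together gave 1 member lower in Zfp352-KO cells and 2 lower for Zfp352/Zfp353-DKO.

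The members' median of -0.08 in Zfp352-KO became 0.033 without the length trend and 0.025 without both, and that of -0.05 in Zfp352/Zfp353-DKO became 0.044 and 0.034. Cox4i1 in Zfp352-KO, uncalled at -0.01, was called higher at 0.12 and 0.16. Summed in CPM instead of TPM, the log2 ratios of Zfp352-KO to Parental were -0.047 for complex I, -0.050 for assembly factors and -0.075 for complex IV. In TPM the same ratios were -0.022, 0.003 and -0.029. That of Zfp352/Zfp353-DKO for complex IV was -0.056 in CPM and -0.022 in TPM. Without the most abundant member the log2 ratios in TPM were -0.053 for complex III, -0.047 for complex IV and -0.060 for ATP synthase in Zfp352/Zfp353-DKO, and -0.064 for ATP synthase in Zfp352-KO. Calls of Uqcr10 and Uqcr11 in Zfp352/Zfp353-DKO cells were lost without Parental 1 (edgeR adjusted p = 0.0664 and 0.0653).

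With replicate number as a block, 2 members were lower in Zfp352-KO cells and 3 among Zfp352/Zfp353-DKO cells. Deviations of same-numbered libraries correlated at -0.08 to 0.11, and 6 of 9 libraries correlated best with their own number. Whether the numbers mark shared cultures is not said by the labels, so the fits without this block did not take them as pairs.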
